A study of Mus musculus with 2 samples.

Results

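The 45 genes described here encode the centromere, the kinetochore, the chromosomal passenger complex and the spindle checkpoint. They were chosen by name from the 49492 genes of a raw count table. All 45 were found, 44 under the listed symbol and *Casc5* under its current symbol *Knl1*, a RefSeq synonym at the same place in the genome. The table came from RNA sequencing of mammary basal cells, which were sorted as lin- CD24+ CD29hi cells from adult wild-type female mice. CL basal cells came from mice given clodronate liposomes by repeated intraperitoneal injection, a treatment that depletes macrophages. Ctrl basal cells came from control mice, for which the sample label gives the treatment as none and the series text gives saline. Both groups were wild type and labelled day 7, and the number of mice pooled into each library was not stated. Each group had 1 library, so no value below has a replicate check and no p-value is given.

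The kinetochore is the protein structure that joins a chromosome to the spindle during cell division. It is built on centromeric chromatin that carries the histone variant CENP-A, through an inner layer that stays on the centromere and an outer layer that binds microtubules. The spindle checkpoint reads unattached kinetochores and delays chromosome separation until every chromosome is attached. Most outer kinetochore and checkpoint genes are known to be transcribed mainly in G2 and mitosis, so in a tissue with few dividing cells their RNA is scarce. In bulk RNA, fewer dividing cells and less of these RNAs per cell cannot be told apart.

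The libraries held 38962512 counts in CL and 37846008 in Ctrl basal cells. Levels are given as CPM, a gene's share of the library's counts scaled to a common total, after scaling by the trimmed mean of M-values (TMM), and between genes only per exon length (RPKM). A gene was tested when its counts summed over both libraries reached 20, which 17356 genes did, and here tested means only that a fold change was computed. Log2 fold changes are CL basal over Ctrl basal, with a prior count of 2, and a gene was called lower or higher past 2-fold. Low counts were mostly even, as they are when both mates of a read pair add to the count, and the 95% intervals given in brackets were computed from the counts divided by 2. They cover counting error only and not the spread between mice.

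Of the 45 members, 43 reached 20 summed counts. *Cenpm*, a subunit of the inner kinetochore, had 0 counts in CL and 4 in Ctrl basal cells, and no fold is given for it. *Ska1*, a microtubule-binding subunit of the SKA complex, had 0 counts in CL and 18 in Ctrl basal cells. Its Ctrl basal level was 6.02 times that of a floor of 3 counts in CL basal. That floor was set by choice, so the value is not a bound on the fold, and no interval is given.

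Of the 43 tested members, 34 had a log2 fold change below 0 and 9 above, and 51.8% of all tested genes lay below 0. Past 2-fold, 19 members were lower (44.2%), against 4.79% of all tested genes, and 11 were with at least 100 summed counts. No member was higher past 2-fold, against 2.07% of all tested genes. The median log2 fold change of the members was -0.80, and that of all tested genes was -0.01. Single members ranged from -2.96 for *Kntc1* to 0.51 for *Cenpp*. With a prior count of 0.5 the lowest was *Bub1*, at -3.24 beside -3.22 for *Kntc1*, and with a prior count of 5 these 2 genes were at -2.39 and -2.57. At 1.5-fold, 27 members were lower and 0 higher, against 11.7% and 6.33% of all tested genes. The counting interval lay below 0 for 24 members (55.8%), against 17.4% of all tested genes, and above 0 for 2 members, *Cenpc1* and *Mis12*, against 18.5%. Closest to the 2-fold limit were *Zwilch* and *Birc5* just inside, both at -1.004, and *Mad2l1* just outside, at -0.99.

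The members had few counts. The median over tested members was 268 counts summed over both libraries, and that over all tested genes was 593.5. Scarce genes passed 2-fold more often than abundant ones over the whole table, so the members were also set against genes of like abundance. With 20 to 99 summed counts, 8 of 12 members were lower past 2-fold (66.7%), against 15.2% of all tested genes in that range. From 100 counts to under 1000, 11 of 24 were lower (45.8%), against 3.26%. None of the 7 members with at least 1000 counts was lower past 2-fold, against 0.535%, and their median log2 fold change was -0.00. Every call past 2-fold was thus of a member with under 1000 counts. The 7 abundant members were *Zwint*, *Mad1l1*, *Hjurp*, *Incenp*, *Mis12*, *Bub3* and *Cenpc1*, and together they also held most of the members' reads. Summed over all 45 members, the level was 465 CPM in CL and 541 in Ctrl basal cells. Summed over the 38 members under 1000 counts, it was 75.7 CPM against 132.

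**Figure D1:**
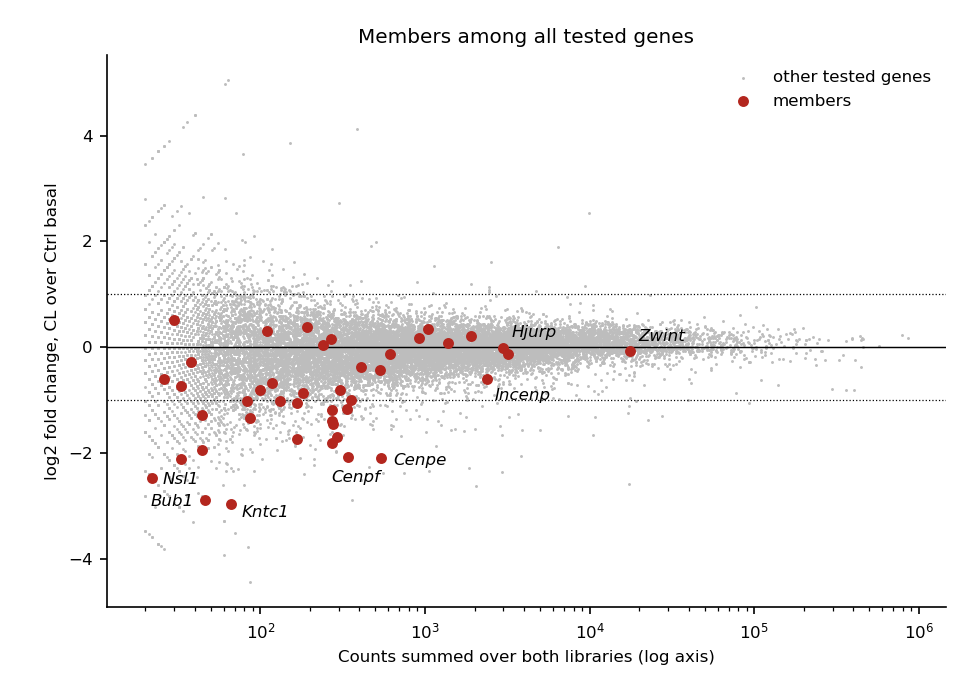
Log2 fold change of CL basal over Ctrl basal (vertical axis) against the counts summed over both libraries (log horizontal axis) for the 43 tested members (red) and the other tested genes (grey), with dotted lines at 2-fold. The red points under the lower line lie left of 1000 counts, and the 7 members right of it lie between the dotted lines.

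CENP-A marks the centromere, HJURP is its chaperone and MIS18A prepares the centromere to receive it. None of these 3 genes passed 2-fold. *Cenpa* (chr5:30666777-30674830, GRCm38) had 64 counts in CL and 117 in Ctrl basal cells, a log2 fold change of -0.85 (-1.54 to -0.23). *Hjurp* had 1497 counts in each library. The chaperone gene thus had the same count in both. *Mis18a* had 61 and 49 counts, and its interval spanned 0 (-0.50 to 1.14).

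**Figure D2:**
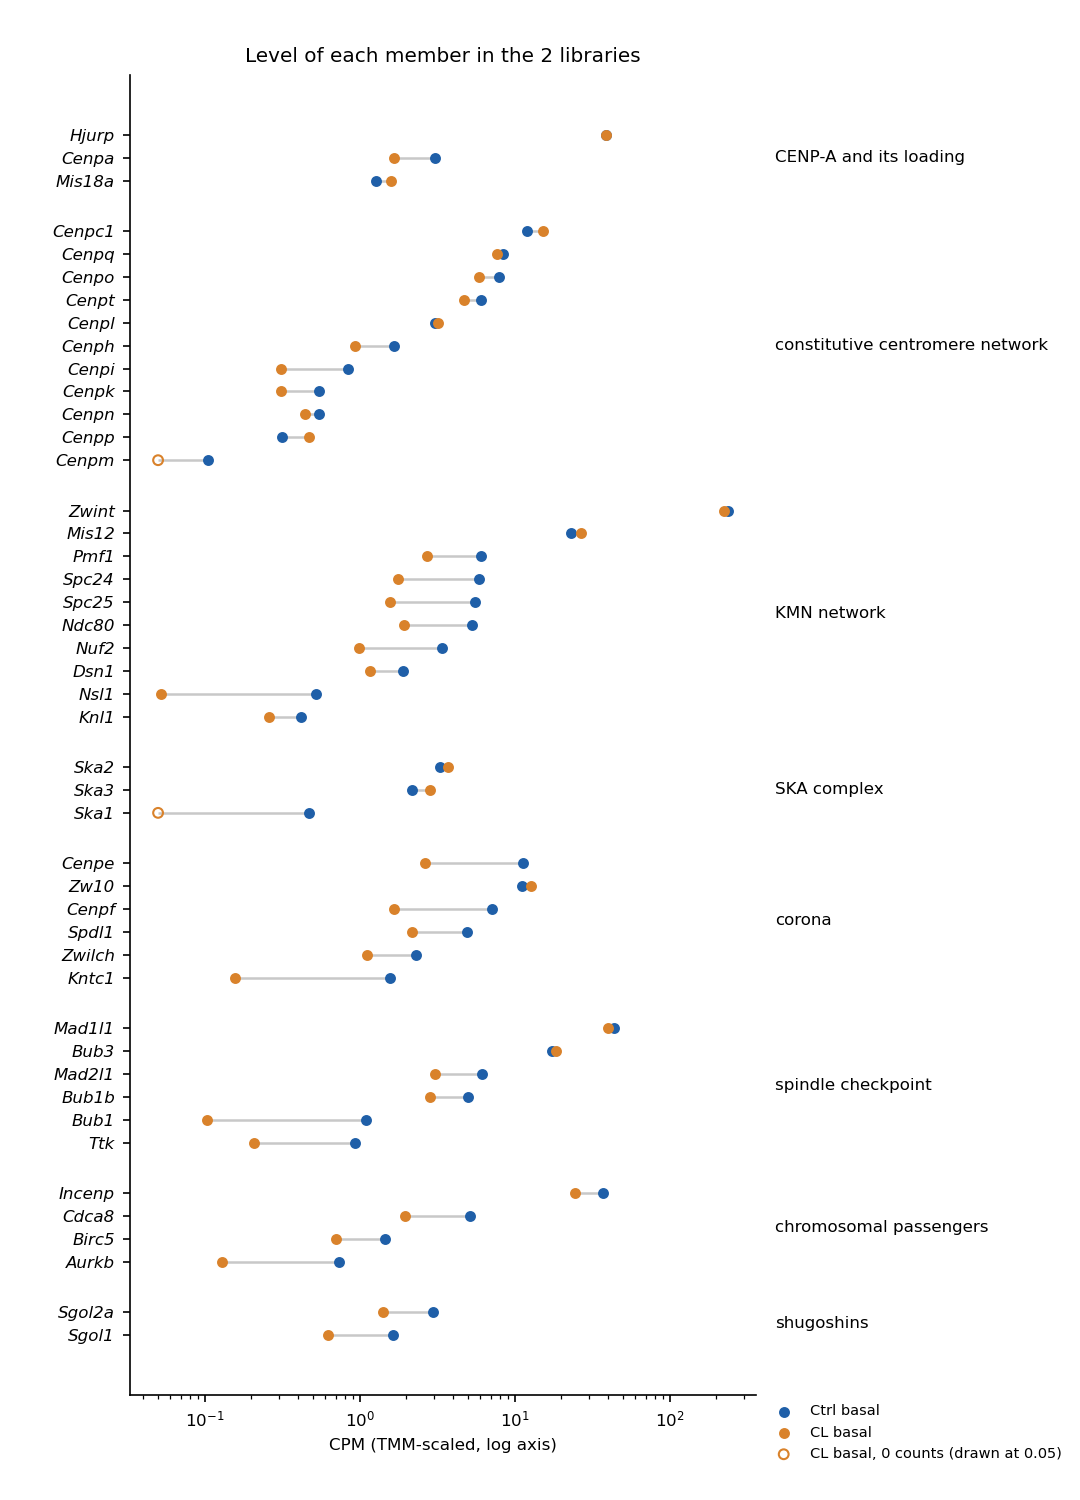
TMM-scaled CPM (log axis) of each of the 45 members in CL basal (orange) and Ctrl basal (blue), grouped by complex, 1 library per group. *Cenpm* and *Ska1* had 0 counts in CL basal and are drawn as open circles at the left, and the orange point lies left of the blue one for every subunit of the NDC80 complex, every chromosomal passenger and both shugoshins.

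The constitutive centromere network is the inner layer, a set of CENP proteins that sit on CENP-A chromatin throughout the cell cycle. Of its 10 tested genes, 1 was lower past 2-fold, and the median log2 fold change was -0.32. *Cenpc1*, which encodes CENP-C, the protein that links CENP-A nucleosomes to the outer kinetochore, had 588 counts in CL and 458 in Ctrl basal cells (0.36, interval 0.10 to 0.61). With *Mis12*, it was 1 of the 2 members whose interval lay above 0. *Cenpt*, the other link to the outer layer, had 180 and 231 counts (-0.36, interval -0.78 to 0.05). The CENP-H, CENP-I and CENP-K proteins form a subcomplex with CENP-M. *Cenph* had 36 and 64 counts (-0.80, interval -1.75 to 0.04). *Cenpi* had 12 and 32 counts (-1.28, interval -3.06 to 0.01), the 1 call past 2-fold in the inner layer, and its interval reached 0. *Cenpk* had 12 and 21 counts (-0.72, interval -2.54 to 0.77). All 4 genes of this subcomplex had fewer counts in CL basal, and the 3 tested ones had intervals that reached past 0. *Cenpl* and *Cenpn*, whose proteins pair with each other, had 123 against 118 and 17 against 21 counts, and both intervals spanned 0. The rest encode the CENP-O group of proteins. *Cenpo* had 227 and 303 counts (-0.42, interval -0.78 to -0.06), and 1380 of its 7263 exonic bases lie in exons of *Adcy3* on the opposite strand. *Cenpq* had 296 and 321 counts and *Cenpp* 18 and 12, with intervals that spanned 0.

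The KMN network, made of the NDC80 complex, the MIS12 complex and KNL1, is the outer layer that holds microtubules. Of its 10 genes, all tested, 6 were lower past 2-fold, with a median log2 fold change of -1.30. The 4 genes of the NDC80 complex, which grips the microtubule, moved together. *Ndc80* (chr17:71496100-71526857) had 74 counts in CL and 204 in Ctrl basal cells (-1.44, interval -2.05 to -0.91). *Nuf2*, which encodes its partner at the microtubule end, had 38 and 130 counts (-1.73, interval -2.60 to -1.02). *Spc24* and *Spc25* encode the pair at the other end of the rod, which docks on the kinetochore. *Spc24* had 68 and 224 counts (-1.69, interval -2.32 to -1.16). *Spc25* had 60 and 214 counts (-1.80, interval -2.47 to -1.24). Over the complex, counts summed to 240 in CL and 772 in Ctrl basal cells. The 4 proteins are present in equal number in the complex, but the levels per exon length in Ctrl basal were 2.42 RPKM for *Ndc80*, 2.27 for *Spc24*, 1.75 for *Spc25* and 0.53 for *Nuf2*. In CL basal the same order held, from 0.87 for *Ndc80* down to 0.16 for *Nuf2*. These levels depend on the exonic length used, 6341 bases for *Nuf2* and 2201 for *Ndc80*, and the length of the transcripts present was not examined.

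The MIS12 complex, which connects the NDC80 complex to the inner layer, was divided. *Mis12* (chr11:71019611-71027371) had 1030 counts in CL and 879 in Ctrl basal cells (0.22, interval 0.04 to 0.41). *Pmf1* had 104 and 233 counts (-1.15, interval -1.67 to -0.68). *Dsn1* had 45 and 73 counts (-0.68, interval -1.53 to 0.09). *Nsl1* had 2 and 20 counts (-2.46), and its interval ran from -8.77 to -0.51 because 2 counts carry little information. The level of *Mis12* per length was 7.63 RPKM in Ctrl basal, above the 1.495 of *Pmf1* and the 0.57 of *Dsn1*, and 231 of its 3003 exonic bases lie in exons of *Derl2* on the opposite strand. *Knl1*, the scaffold for checkpoint proteins, had 10 and 16 counts (-0.59, interval -2.64 to 1.11). *Zwint*, which encodes a KNL1 partner, was the most abundant member. It had 8664 counts in CL and 9056 in Ctrl basal cells (-0.07, interval -0.13 to -0.01), or 50.8 and 53.3 RPKM. With the trend on mean expression removed, *Zwint* was at -0.15, outside that interval.

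The SKA complex helps the outer kinetochore to hold on to shrinking microtubules. Beside *Ska1*, with its 0 and 18 counts, *Ska2* had 142 counts in CL and 126 in Ctrl basal cells. *Ska3* had 110 and 83 counts. Both intervals spanned 0 (-0.34 to 0.68 for *Ska2*, and -0.21 to 1.02 for *Ska3*). No direction was established for these 2 genes. For *Ska2*, 329 of its 3272 exonic bases are shared with *Gm11491* on the opposite strand.

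**Figure D3:**
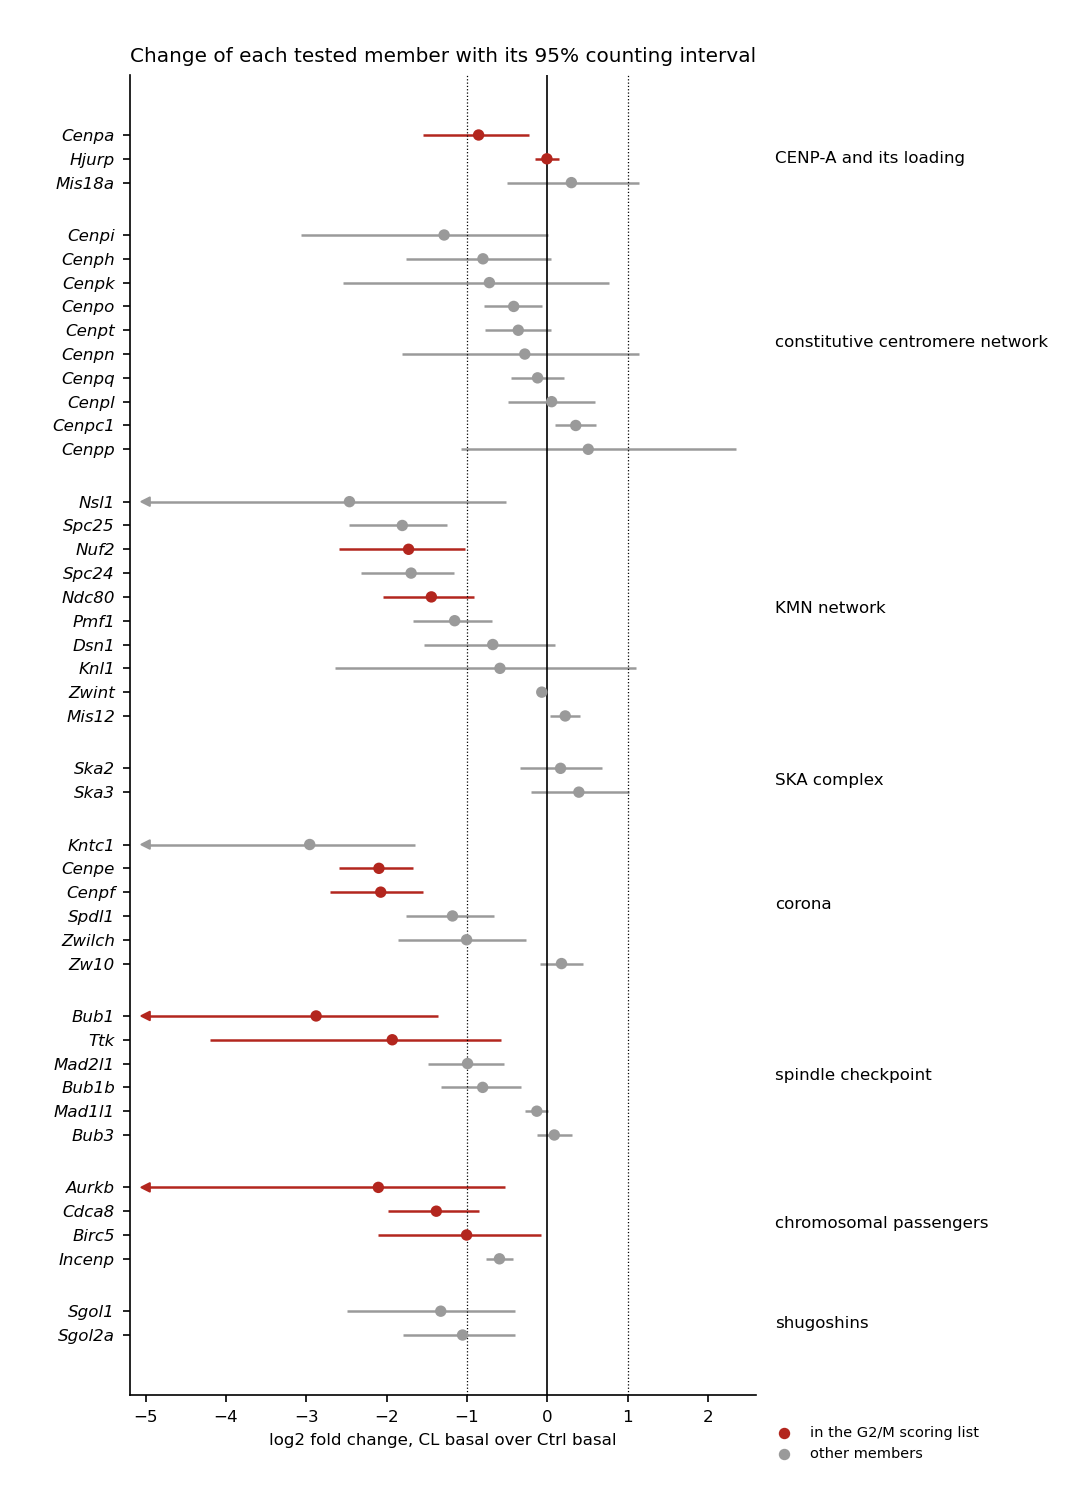
Log2 fold change of CL basal over Ctrl basal for the 43 tested members, grouped by complex, with 95% counting intervals from the counts divided by 2 and dotted lines at 2-fold. *Kntc1* and *Bub1* lie furthest to the left with wide intervals, and *Cenpe* at -2.10 and *Cenpf* at -2.07 have narrower ones, while an arrow marks an interval that runs past the axis and red marks the G2/M scoring list.

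The corona is the outermost layer, which forms on unattached kinetochores. Of its 6 genes, 5 were lower past 2-fold, and the median log2 fold change was -1.63. *Cenpe* (chr3:135212537-135273611) encodes a kinesin motor that moves chromosomes to the spindle equator. It had 101 counts in CL and 437 in Ctrl basal cells, a 4.27-fold lower level (-2.10, interval -2.59 to -1.67). *Cenpf* (chr1:189640606-189688086), whose large protein joins the kinetochore in G2, had 64 and 275 counts, a 4.21-fold lower level (-2.07, interval -2.71 to -1.54). These were the members with the largest differences among those with at least 100 summed counts. *Spdl1*, the gene for the dynein adaptor Spindly, had 83 and 190 counts (-1.18, interval -1.76 to -0.66). The remaining 3 genes encode the Rod, Zw10 and Zwilch proteins, which work as 1 complex that brings checkpoint proteins and dynein to the kinetochore. *Kntc1* (chr5:123749716-123821593), the gene for Rod, had 6 and 60 counts (-2.96, interval -5.68 to -1.64). *Zwilch* had 43 and 88 counts (-1.004, interval -1.85 to -0.26), with 254 of 4283 exonic bases shared with *Lctl* on the opposite strand, and it lost the 2-fold call in 4 of 8 alternatives, at up to -0.90 with the trend on mean expression removed. *Zw10* had 488 and 430 counts (0.18, interval -0.09 to 0.45). *Zw10*, whose interval spanned 0, was the most abundant of the 3 per length, at 2.93 RPKM in Ctrl basal against 0.54 for *Zwilch* and 0.20 for *Kntc1*.

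Of the 6 spindle checkpoint genes, 2 were lower past 2-fold, and the median log2 fold change was -0.90. Both calls were kinase genes under 100 summed counts, and without genes under that number the median was -0.47. *Bub1* (chr2:127801122-127831865), whose kinase recruits the other checkpoint proteins, had 4 counts in CL and 42 in Ctrl basal cells (-2.88, interval -6.53 to -1.36). *Ttk*, the gene for the kinase Mps1 that starts checkpoint signalling, had 8 and 36 counts (-1.93, interval -4.20 to -0.57). The proteins of *Mad2l1*, *Bub1b* and *Bub3* belong to the inhibitor that holds back the anaphase promoting complex. *Mad2l1* had 118 and 236 counts (-0.99, interval -1.48 to -0.54). It passed 2-fold in 4 of 8 alternatives, at up to -1.04. *Bub1b*, which encodes BubR1, had 110 and 193 counts (-0.80, interval -1.32 to -0.32). *Bub3*, whose protein also binds Bub1, had 708 and 664 counts (0.09, interval -0.13 to 0.31). *Mad1l1*, the gene for the Mad2 receptor at the kinetochore, had 1535 and 1675 counts (-0.13, interval -0.27 to 0.01). The 2 checkpoint genes with the highest levels in Ctrl basal, 11.97 RPKM for *Mad1l1* and 2.47 for *Bub3*, were those with the smallest differences.

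The chromosomal passenger complex corrects faulty attachments through the kinase Aurora B. All 4 of its genes had an interval below 0, and 3 were lower past 2-fold. *Aurkb*, the gene for the kinase, had 5 counts in CL and 28 in Ctrl basal cells (-2.10, interval -5.23 to -0.53). *Birc5*, which encodes Survivin, had 27 and 56 counts (-1.004, interval -2.11 to -0.07). Its 2-fold call was lost in 4 of 8 alternatives, at up to -0.89 with the trend on mean expression removed. *Cdca8*, which encodes Borealin, had 75 and 198 counts (-1.38, interval -1.99 to -0.85), with 232 of 5177 exonic bases shared with *9930104L06Rik* on the opposite strand. *Incenp*, the scaffold and activator of the kinase, was far more abundant, at 945 and 1424 counts (-0.59, interval -0.77 to -0.43). Among the 7 members with at least 1000 summed counts, *Incenp* was the one lower at 1.5-fold.

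Shugoshins protect the cohesin that holds sister chromatids together at the centromere. *Sgol1* (chr17:53674786-53689333) had 24 counts in CL and 63 in Ctrl basal cells (-1.33, interval -2.49 to -0.40). *Sgol2a* had 54 and 114 counts (-1.05, interval -1.80 to -0.40). Both were lower past 2-fold, though *Sgol2a* was at -0.95 with the trend on mean expression removed, and 2455 of the 7007 exonic bases of *Sgol2a* lie in exons of *Kctd18* on the opposite strand. Both shugoshin genes, *Cenpe* and *Ndc80* are named in the study, partly from these libraries, so their direction is not independent evidence. Without these 4 genes, 15 of 39 members were lower past 2-fold, and the median log2 fold change was -0.72. The study also reported lower cell division genes from these libraries, so the remaining members are not independent evidence either.

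The use of strand in the counting was not stated, so reads of a member and of an overlapping gene cannot be told apart. Without the members that share exonic bases with another gene, 16 of 34 were lower past 2-fold, and the median was -0.92.

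There are 11 members in the gene list in common use for scoring G2/M in single cells. Of these, 9 were lower past 2-fold, and their median log2 fold change was -1.73. They ranged from -2.88 for *Bub1* to -0.00 for *Hjurp*, which is in that list and was nevertheless level. Of the 32 tested members outside the list, 10 were lower past 2-fold, and their median was -0.59, or -0.39 with at least 100 summed counts. These 10 were *Cenpi*, *Spc24*, *Spc25*, *Nsl1*, *Pmf1*, *Spdl1*, *Kntc1*, *Zwilch*, *Sgol1* and *Sgol2a*. The difference between the lists was not tested.

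Many genes of mitosis carry a cell cycle homology region (CHR) close to their transcription start, with the letters TTTGAA or TTTAAA, and often CCAAT boxes upstream. These letters were searched on both strands in RefSeq promoters of GRCm38.p6, from 250 bases before to 50 after the start. Promoters were found for 39 members, and those of *Spc24*, *Nsl1*, *Ska1*, *Zwilch*, *Incenp* and *Aurkb* were not among them. A CHR was present for 22 of the 39 members (56.4%), against 30.6% of all 27025 genes with a promoter, 28.2% of 17491 protein-coding genes and 23.0% of 11689 tested genes. It was present for 10 of the 15 members lower past 2-fold and 12 of the 23 other tested members. CCAAT was present for 26 of 39 members (66.7%), against 41.1% of all genes and 42.1% of tested genes, and for 12 of 15 lower members and 13 of 23 others. A limit of 50 bases to either side of the start was chosen after the positions had been seen. Within it, a CHR was present for 17 of 39 members (43.6%), against 9.54% of all genes and 6.41% of tested genes, and for 8 of 15 lower members and 9 of 23 others. Within the same limit, CCAAT was present for 18 of 39 members (46.2%), against 15.6% of all genes and 16.4% of tested genes, and for 11 of 15 lower members (73.3%) and 7 of 23 others (30.4%). The lower members and the others were not compared by a test.

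Windows are shown for 7 of the 8 lower members with a CHR within 50 bases of the start. Each is 30 bases, 5′ to 3′ on the strand of the gene, with the match in capitals; TTCAAA is TTTGAA on the other strand, and *Ndc80* holds a further match in lower case.
Kntc1, chr5:123749706-123749735, plus strand: ttctcccgccaaTTCAAAtcagtggcaggg
Cenpe, chr3:135212565-135212594, plus strand: ccttgaggacatTTTAAActtaaaggcggg
Cenpf, chr1:189688067-189688096, minus strand: ggcggcgggcagTTTGAAtcgctcgtgctg
Ttk, chr9:83834684-83834713, plus strand: cagcggggaaatTTCAAAcgtgtttccgga
Spc25, chr2:69206172-69206201, minus strand: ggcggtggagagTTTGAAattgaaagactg
Ndc80, chr17:71526818-71526847, minus strand: gcgggcggaaacTTTAAAattcaaaccgcc
Spdl1, chr11:34833623-34833652, minus strand: gcgggaaccgtaTTCAAAaatccccggcgc

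The same letters stood near the start of 9 members that were not lower past 2-fold. Among these 9, *Cenpa* (-0.85), *Bub1b* (-0.80) and *Zwint* (-0.07) had intervals below 0, and *Cenpc1* (0.36) had one above 0. Windows are shown for 3 of the 9, which leave out *Cenpa* and *Bub1b*.
Hjurp, chr1:88277543-88277572, minus strand: tgcgtaaatactTTTGAAagaccctattag
Zwint, chr10:72654819-72654848, plus strand: gaggtgacgtcaTTTAAAgtcctgcccact
Ska3, chr14:57826160-57826189, minus strand: gcctgcgcaggaTTCAAAtgtgtagcgcgt
A match is a description of the letters and shows neither binding nor use of the site.

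**Figure D4:**
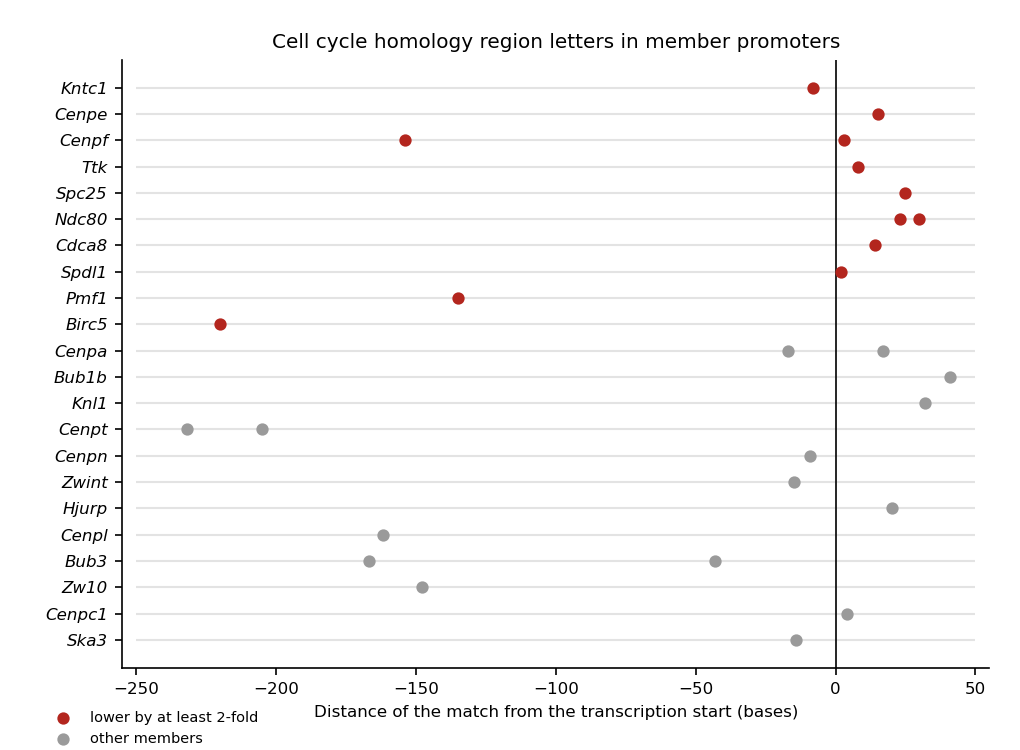
Position of each CHR match (TTTGAA or TTTAAA, either strand) relative to the RefSeq transcription start, in bases, in the promoters of members that hold a match, coloured by whether the member was lower past 2-fold. Of the 22 members shown, 17 hold a match within 50 bases of the start, *Cenpe*, *Cenpf* and *Ndc80* among the lower ones and *Hjurp* and *Zwint* among the others.

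The lists for the rest of the machinery of chromosome separation had medians nearer to 0, but they were not matched to the members for abundance. The members with at least 1000 summed counts also had a median of -0.00. Over the whole table, 4.79% of all tested genes were lower past 2-fold, and 15.2% of those with 20 to 99 summed counts. Of 18 tested further kinetochore genes, 3 were lower past 2-fold, and the median log2 fold change was -0.09. *Knstrn*, which encodes a spindle and kinetochore protein, had 36 counts in CL and 175 in Ctrl basal cells (-2.22). *Spag5*, its partner on the spindle, had 52 and 179 counts (-1.75). Of 21 genes of the anaphase promoting complex and separase, 2 were lower, with a median of -0.02. They were *Ube2c*, a ubiquitin-conjugating enzyme of that complex, with 58 and 230 counts (-1.95), and *Espl1*. The latter, separase itself, was named after its values were seen, with 10 and 25 counts (-1.17, interval -3.17 to 0.27). *Ube2s*, another ubiquitin-conjugating enzyme in the list, had 6523 and 5247 counts (0.31, interval 0.24 to 0.38). Of the 21 genes, 11 lay below 0 and 10 above. Of 12 tested cohesin genes, 1 was lower, with a median of 0.04. It was *Esco2*, the cohesin acetyltransferase of S phase, named after its values were seen, with 6 and 26 counts (-1.81), while the core subunit gene *Smc3* had 21499 and 16819 counts (0.35). Of 8 condensin genes, 1 was lower, with a median of -0.16, namely *Ncapg*, named after its values were seen, with 18 and 53 counts (-1.46). *Smc2*, a core condensin subunit, had 380 and 582 counts (-0.62).

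Among 7 markers of dividing cells, 4 were lower past 2-fold, with a median of -1.14. *Mki67*, the common marker of proliferation, had 754 counts in CL and 2103 in Ctrl basal cells (-1.48), and *Top2a*, the topoisomerase of mitotic chromosomes, had 390 and 891 (-1.19). *Ccnb1* and *Cdk1*, which encode the kinase that drives mitosis, had 23 against 68 counts (-1.49) and 28 against 64 (-1.14). The study names both of these genes, partly from these libraries, so their direction is not independent evidence either. The replication genes *Pcna* at 0.32 and *Mcm2* at 0.04 were not lower. *Ccna2* lay between, at -0.55.

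Of the markers of other cell types, the luminal list had the lowest median. The 8 basal and myoepithelial markers had a median log2 fold change of 0.08 and summed to 17319 CPM in CL and 16686 in Ctrl basal cells, with *Krt14*, the basal keratin, at 232845 and 210758 counts (0.14). *Krt5*, the other basal keratin, had 40295 and 47049 counts (-0.23). All 10 luminal markers were below 0, with a median of -0.78, and summed to 3158 CPM in CL and 4988 in Ctrl basal cells. *Krt19* at -1.11 and *Csn3* at -1.31 passed 2-fold. Macrophage markers summed to 26.8 against 37.5 CPM, and 6 of the 7 tested were below 0. *Mrc1*, a macrophage mannose receptor, had 86 and 168 counts (-0.95, interval -1.54 to -0.42), *Cd14*, a co-receptor for bacterial lipopolysaccharide, had 468 and 748 (-0.68, interval -0.92 to -0.44), and *Adgre1*, the gene for F4/80, had 10 and 7. *Mrc1* and *Cd14* were the 2 tested markers with an interval below 0, while *Csf1r*, the receptor for a macrophage growth factor, had 89 and 64 counts (0.46, interval -0.22 to 1.17) and the intervals of the other tested markers spanned 0. Lymphoid markers summed to 17.5 against 18.1 CPM, endothelial markers to 280 against 353, and fibroblast markers to 203 against 245. Against these sums, the endothelial marker *Emcn* had 215 and 154 counts (0.47, interval 0.04 to 0.92) and the collagen gene *Col3a1* 2508 and 2330 (0.10). No macrophage, lymphoid, endothelial or fibroblast marker was at 0 in either library. The luminal markers moved in the same direction as the members and by a like median, and their part in the members' difference was not tested.

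**Figure D5:**
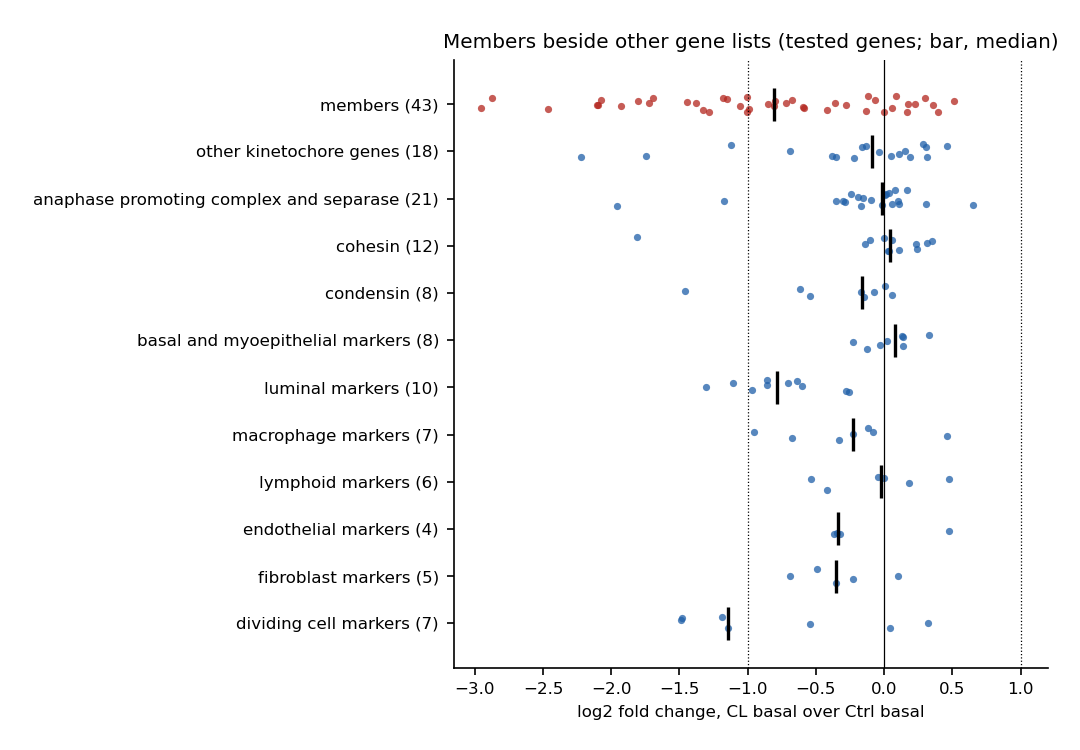
Log2 fold change of CL basal over Ctrl basal for the tested genes of each list (points) and its median (bar), with the number of tested genes in brackets and dotted lines at 2-fold. The medians of the members (-0.80), the luminal markers (-0.78) and the markers of dividing cells (-1.14) lie furthest left, and those of the other lists lie between -0.35 and 0.08.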

How the data were processed

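RNA was sequenced on an Illumina HiSeq instrument from 1 library per group. The sample labels name a SMARTER mRNA-Seq kit and column-purified total RNA, and the study's methods name another RNA reagent. The authors deposited unnormalized read counts for each gene, summed over exons of GRCm38/mm10, with an exon length per gene. The aligner, the counter's settings and the use of strand are not given in the sources used here. Another 2 deposited columns hold the authors' own log2 ratios and were not used.

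Counts were scaled by TMM in edgeR 4.0.16 (R 4.3.3), with factors from genes of at least 20 summed counts. Intervals were exact Clopper-Pearson intervals (scipy 1.17.1) of the share of a gene's counts, divided by 2, in CL basal. With 1 library per group, no model with a replicate spread (edgeR, DESeq2 or limma) could be fitted. At these depths 3 counts were 0.0780 CPM in CL basal and 0.0782 in Ctrl basal. Every member was named, by complex, and for the lists of other mitotic machinery up to 3 genes with the largest difference among those with at least 100 summed counts. Cell type and dividing cell markers were named after their values had been seen. The members and lists were chosen with earlier results of these data known. Reads that the counting could have split between near-identical genes were not examined. The alternatives were other scalings (total counts, DESeq2 1.42.0 size factors, upper quartile), prior counts of 0.5 and 5, no filter or at least 100 summed counts, thinning of the deeper library, removal of a trend on mean expression or exonic length, a 1.5-fold limit, counts as deposited for intervals, and leaving out the members named by the study or with exonic overlap. The calculation was tested on simulated data. A gene of a context list and a promoter window are not reported here.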

Additional observations from a re-analysis of the deposited data

How the results depend on the processing

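Over 13 alternatives, between 11 and 27 members were lower past 2-fold (or, for 27, past 1.5-fold), and 0 were higher in each of the 13. The count of 11 came with at least 100 summed counts, where fewer members were tested. The median log2 fold change of the members ranged from -0.92 to -0.68, that of the 11 G2/M members from -1.76 to -1.44 and that of the members outside that list from -0.64 to -0.39. Medians ranged from -1.66 to -1.18 for the corona, from -0.94 to -0.47 for the checkpoint and from -1.33 to -1.21 for the KMN network. Between 17 and 29 members had an interval below 0, the highest with counts as deposited. *Zwilch* and *Birc5* fell short of 2-fold with the upper quartile, a prior count of 5 and both trends removed, and *Sgol2a* with the mean expression trend removed. *Mad2l1* passed 2-fold with total counts, a prior count of 0.5, thinning and the length trend removed. No paired analysis was possible because there was 1 library of each kind, and for the same reason no replicate could be left out. Depth limits the members under 100 summed counts most: a value such as that of *Nsl1* rests on 22 counts over both libraries.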
